A study of Mus musculus with 1 sample.

Results

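The genes of the TGF-β pathway were followed through single alveolar macrophages (AMs), the macrophages that live in the airspaces of the lung. The members were chosen by name and not by a limit on their values, though earlier results of these data were known. They are the ligand Tgfb1, its receptors Tgfbr1 and Tgfbr2, and the signal transducers Smad2, Smad3 and Smad4. The others are the inhibitory Smad7 and the nuclear repressors Ski and Skil. Of these 9 genes, 8 have a row among the 11918 genes listed. Smad3 is not listed, and no value is given for it.

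TGF-β1 is secreted in a latent complex and acts after it has been released from that complex, often by integrins. The active ligand brings together the type II receptor (Tgfbr2) and the type I receptor (Tgfbr1), the type I receptor phosphorylates Smad2 and Smad3, and these enter the nucleus with Smad4 to regulate genes. Smad7 blocks the receptor, and Ski and SnoN (the product of Skil) hold Smad complexes in a repressed state. In AMs, TGF-β signalling through Tgfbr2 is known to be needed for development and upkeep of the population, and AMs are known to be a source of the ligand themselves.

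The library came from the lung of 1 mouse of the WT group, which carried Hdac3 fl/fl alleles without Cre. The labels give the genotype as wild-type, the strain as FVB/NJ backcrossed to C57BL/6, and the age as 8 to 12 weeks. The cells were sorted as CD45+CD11c+SiglecF+, and 5000 of them were loaded on a 10x Genomics 3′ (v2) reaction. The library of Cre-positive mice with deletion of Hdac3 was not analysed here. With 1 library and 1 mouse there is no replicate, so no test between samples could be made. All intervals below are exact 95% intervals, and they cover counting error only.

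The library held 2055 cells with 7222978 UMIs (unique molecular identifiers, each a captured transcript). A cell had 1143 to 8603 UMIs, with a median of 3278, and a median of 1454 genes. All 20 genes of a list of AM markers were found in at least 5% of cells each, with a summed level of 369 UMIs per 10000. Markers of other cell types differed in how far they reached. There were 13 cells (0.633%) holding a UMI of an endothelial marker, 8 cells (0.389%) one of a fibroblast or smooth muscle marker and 58 cells (2.82%) one of a platelet marker. Of 11 lymphocyte markers 3 were listed, with 1028 UMIs in all, of which 1006 were of Jchain and 945 lay in a single cell. Of 10 lung epithelial markers all were listed, and 1389 cells (67.6%) held a UMI of one, led by Epcam in 58.1% of cells. A marker of interstitial macrophages or monocytes was found in 1626 cells (79.1%), led by Nr4a1 in 70.6%, and a granulocyte marker in 261 cells (12.7%). No cell type that should lack the TGF-β genes was present to measure how much of their signal is free RNA.

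A level below is the number of UMIs of a gene per 10000 UMIs of all genes, pooled over cells. With 3′ tags each transcript gives at most 1 UMI whatever its length, so levels were not divided by length, and a comparison between genes rests on equal capture of their 3′ ends. None of the 98-base sequences within 300 bases of the coding transcripts' 3′ ends was shared between a member and another gene, and no other gene overlapped a member on the same strand (GENCODE M21, GRCm38).

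The ligand and both receptors were present at nearly the same level, and each was detected in 47.7 to 50.4% of cells at this depth. Tgfb1 (chromosome 7, 25687002 to 25705077, plus strand) had 1587 UMIs, a level of 2.20 (2.09 to 2.31), and at least 1 UMI in 50.4% of cells (48.2 to 52.6%). Tgfbr1 (chromosome 4, 47353222 to 47414931, plus strand) had 1501 UMIs and a level of 2.08 (1.97 to 2.19), with a UMI in 47.7% of cells. Tgfbr2 (chromosome 9, 116084293 to 116175360, minus strand) had 1463 UMIs and a level of 2.03 (1.92 to 2.13), with a UMI in 47.8% of cells. Neither Tgfb1 and Tgfbr1 (ratio 1.06, 0.985 to 1.14) nor Tgfbr1 and Tgfbr2 (1.03, 0.954 to 1.10) could be told apart by level, while Tgfb1 lay above Tgfbr2 by 1.08-fold (1.01 to 1.17). The 3 genes ranked 736, 776 and 797 among the listed genes, whose median level was 0.148.

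The Smads were far less abundant than the receptors. Smad2 (chromosome 18, 76241580 to 76310963, plus strand), the receptor-regulated Smad of the pathway that is listed, had 261 UMIs and a level of 0.361 (0.319 to 0.408), with a UMI in 11.7% of cells (10.3 to 13.1%). Smad4 (chromosome 18, 73639009 to 73703780, minus strand), the common partner of all receptor-regulated Smads, had 219 UMIs and a level of 0.303 (0.264 to 0.346), with a UMI in 10.1% of cells. Smad2 and Smad4 could not be told apart (ratio 1.19, 0.992 to 1.43), and Tgfbr1 was 5.75-fold above Smad2 (5.04 to 6.58). Smad7 (chromosome 18, 75367529 to 75395935, plus strand) was the lowest of the listed members, with 59 UMIs, a level of 0.0817 (0.0622 to 0.105) and a UMI in 57 cells (2.77%, 2.11 to 3.58%). Smad4 was 3.71-fold above Smad7 (2.77 to 5.04), and 37.8% of listed genes had a lower level than Smad7.

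The nuclear repressors differed in level. Skil (chromosome 3, 31095058 to 31122577, plus strand) had the highest level of the 8 genes, 2.47 (2.36 to 2.59), from 1783 UMIs, with a UMI in 54.2% of cells (52.0 to 56.4%). It was 1.12-fold above Tgfb1 (1.049 to 1.203). Ski (chromosome 4, 155154075 to 155222592, minus strand) had 1074 UMIs, a level of 1.49 (1.40 to 1.58) and a UMI in 38.8% of cells. Skil was 1.66-fold above Ski (1.54 to 1.79) and 30.2-fold above Smad7 (23.3 to 39.9).

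**Figure D1:**
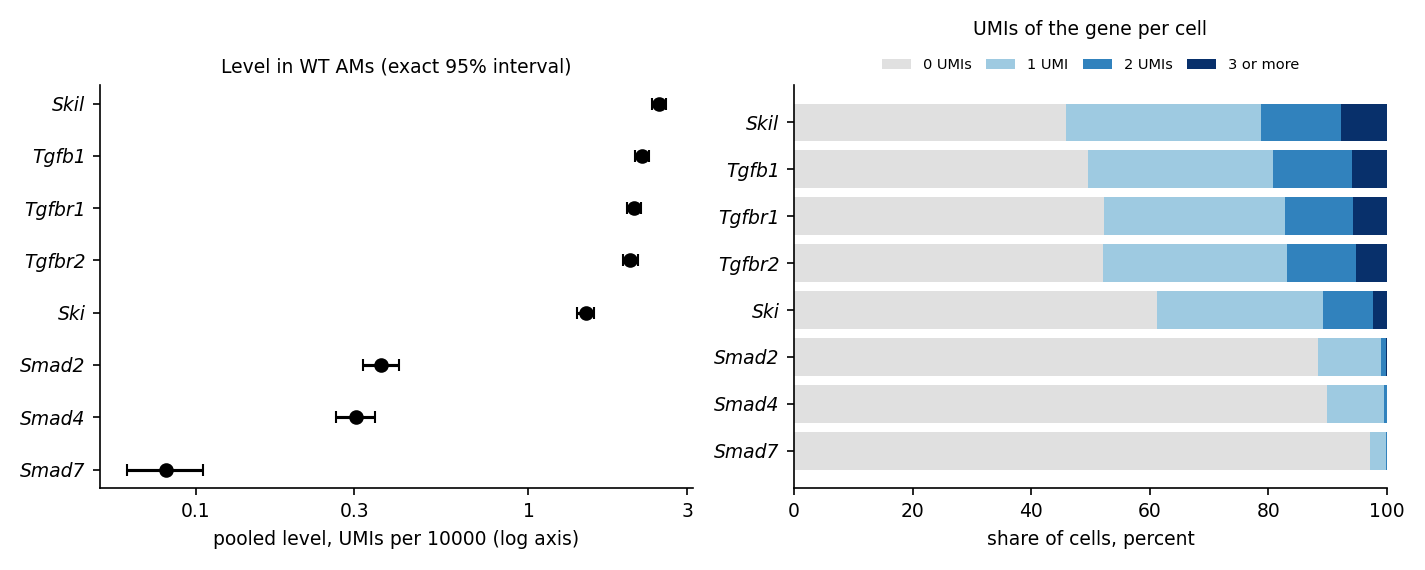
Left, pooled level of the 8 listed members in UMIs per 10000 on a log axis, with exact 95% intervals for counting error. Right, share of the 2055 cells with 0, 1, 2 or 3 and more UMIs of each gene; Skil, Tgfb1 and both receptors sit together near 2 UMIs per 10000, and the Smads lie well below.

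Most detections were of a single molecule. Of the cells with a UMI of Tgfb1, 643 had 1, 274 had 2 and 119 had 3 or more, with a maximum of 6. The largest count in any cell was 9 UMIs, of Tgfbr1. Smad4 and Smad7 never exceeded 2 UMIs in a cell. In a cell of median depth 1 UMI amounts to 3.05 UMIs per 10000, which is above the pooled level of every member. The variance of the counts over that of Poisson sampling at the depth of each cell was 0.981 for Smad4 and 1.03 for Smad2 and Smad7. It was 1.06 for Ski, 1.09 for Tgfbr2, 1.10 for Tgfb1, 1.16 for Skil and 1.22 for Tgfbr1. This ratio was highest for Tgfbr1 and Skil, but at equal relative spread it grows with the level. It therefore does not rank the rare Smads against the more abundant members. A UMI of at least 1 member was found in 1965 cells (95.6%).

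Detection followed sequencing depth. Cells were ordered by depth in 5 bins of 411. In the lowest bin (1143 to 2242 UMIs) Tgfb1 was detected in 32.4% of cells, and in the deepest (4748 to 8603 UMIs) in 65.2%. Over the same bins detection went from 30.7 to 60.6% for Tgfbr1, from 32.1 to 66.7% for Tgfbr2, from 37.0 to 71.5% for Skil and from 26.8 to 53.5% for Ski. Detection of Smad2 went from 6.33 to 15.6% and that of Smad4 from 5.60 to 15.8%. Smad7 went from 1.22 to 5.60%. A cell without a UMI of these genes can therefore not be called a cell without the transcript. Levels moved less, and for the more abundant members in the other direction. The level of Tgfbr1 was 2.19 (1.86 to 2.56) in the lowest bin, 2.40 (2.12 to 2.72) in bin 2 and 1.81 (1.64 to 1.98) in the deepest, so that the lowest and deepest bins overlapped. Skil had 2.69 (2.33 to 3.10) in the lowest bin and 2.20 (2.02 to 2.40) in the deepest. When each cell was thinned to 2000 UMIs, which leaves out 299 shallower cells, the expected shares were 35.5% for Tgfb1, 33.2% for Tgfbr1, 32.7% for Tgfbr2, 37.7% for Skil, 25.5% for Ski, 7.11% for Smad2, 5.86% for Smad4 and 1.62% for Smad7. The order of the members by detection was the same as without thinning, apart from Tgfbr1 and Tgfbr2, which differed by less than their intervals.

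**Figure D2:**
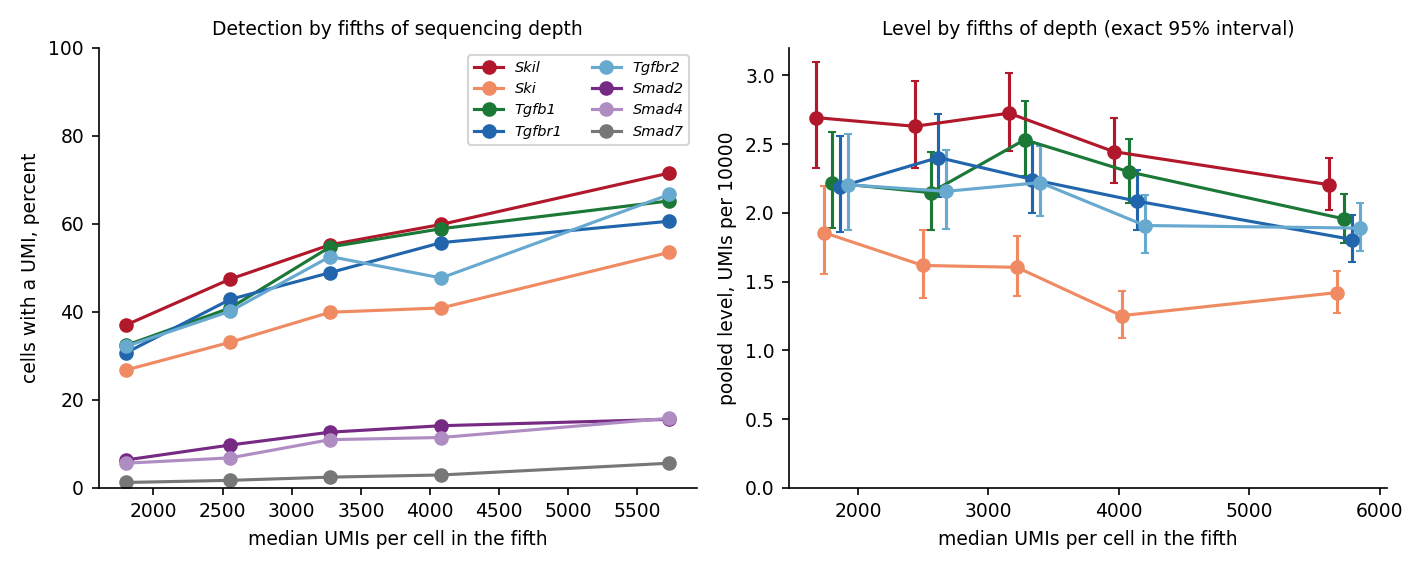
Left, share of cells with a UMI of each member against the median UMIs per cell in 5 bins of 411 cells by depth. Right, pooled level in the same bins with exact 95% intervals, points moved slightly sideways to keep them apart; detection climbs with depth for each gene while the level of Tgfbr1 is 1.81 in the deepest bin and 2.40 in bin 2.

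The share of mitochondrial transcripts, a sign of cell quality, was set beside the level of each member. It was taken over the UMIs of the listed genes. The paper states that cells over 5% mitochondrial content were excluded, so the cells over 5% here are ones the authors kept. In the 384 cells with over 5% mitochondrial UMIs Tgfbr1 had a level of 2.50, against 2.00 in the other 1671 (ratio 1.25, 1.10 to 1.43). These cells were also shallower, with a median of 2684.5 UMIs against 3403. For the other 7 members the interval of the ratio included 1. No share of all genes is given for this comparison, so it does not set Tgfbr1 apart from other genes. The part of cell quality in the spread of Tgfbr1 was not tested.

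The next comparison asked whether the cells that hold the ligand transcript are those that hold the receptors, beyond what depth gives. The expected number of cells with both transcripts was summed over 20 bins of cells of like depth, as if the genes were independent within a bin. Tgfb1 and Tgfbr1 were found together in 512 cells (24.9%), with 520 expected (ratio 0.984, 0.901 to 1.07). Tgfb1 and Tgfbr2 were found together in 497 cells, with 523 expected (0.951, 0.869 to 1.04). The receptors were found together in 520 cells, with 494 expected (1.05, 0.965 to 1.15). The intervals of all 3 ratios include 1, and their outer bounds are 0.869 and 1.15. They treat the observed cells as a Poisson count and do not hold fixed the number of cells with each gene. For common genes they are therefore wider than the spread of the count under independence. That they include 1 does not settle whether the genes are independent. All 3 transcripts were seen in 269 cells (13.1%), with 273 expected, and none of them in 315 cells (15.3%), with 318 expected. The median depth went from 2427 UMIs in cells with none of the 3 to 4091 in cells with all of them.

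The choice of expectation moved the ratio of each pair of the ligand and receptors. With an expectation from the overall shares alone, which ignores depth, the ratios were 1.04 for Tgfb1 with Tgfbr1, 1.00 for Tgfb1 with Tgfbr2 and 1.11 for the receptors. The odds ratio within depth bins was 1.26 for the receptors, 0.929 for Tgfb1 with Tgfbr1 and 0.797 for Tgfb1 with Tgfbr2. Odds ratios stand further from 1 than ratios of cells when both genes are common, and the same counts underlie both. No interval was computed for the odds ratios, so whether those of 1.26 and 0.797 differ from 1 was not tested.

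Past a ratio of 1.2 in either direction were 0.622% of 5944 genes paired with Tgfb1, 0.757% paired with Tgfbr1 and 0.522% paired with Tgfbr2. Of the 6 other members in at least 5% of cells, 0 passed with any of the 3. So few of all genes pass this limit that 0 of 6 does not set the members apart from them. Pparg, the transcription factor that specifies AMs and lies downstream of TGF-β in them, was found in 31.7% of cells and gave ratios of 1.02 with Tgfb1, 0.982 with Tgfbr1 and 1.01 with Tgfbr2. Among all pairs of members with at least 20 cells expected, the lowest ratio was that of Smad7 and Ski (20 cells, 24.9 expected, 0.802, 0.490 to 1.24) and the highest that of Smad4 and Skil (133 cells, 121 expected, 1.10, 0.921 to 1.30). Both intervals include 1, and they too are wider than the spread of the count under independence. The wide interval of each Smad7 pair follows from the 57 cells with a Smad7 UMI.

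**Figure D3:**
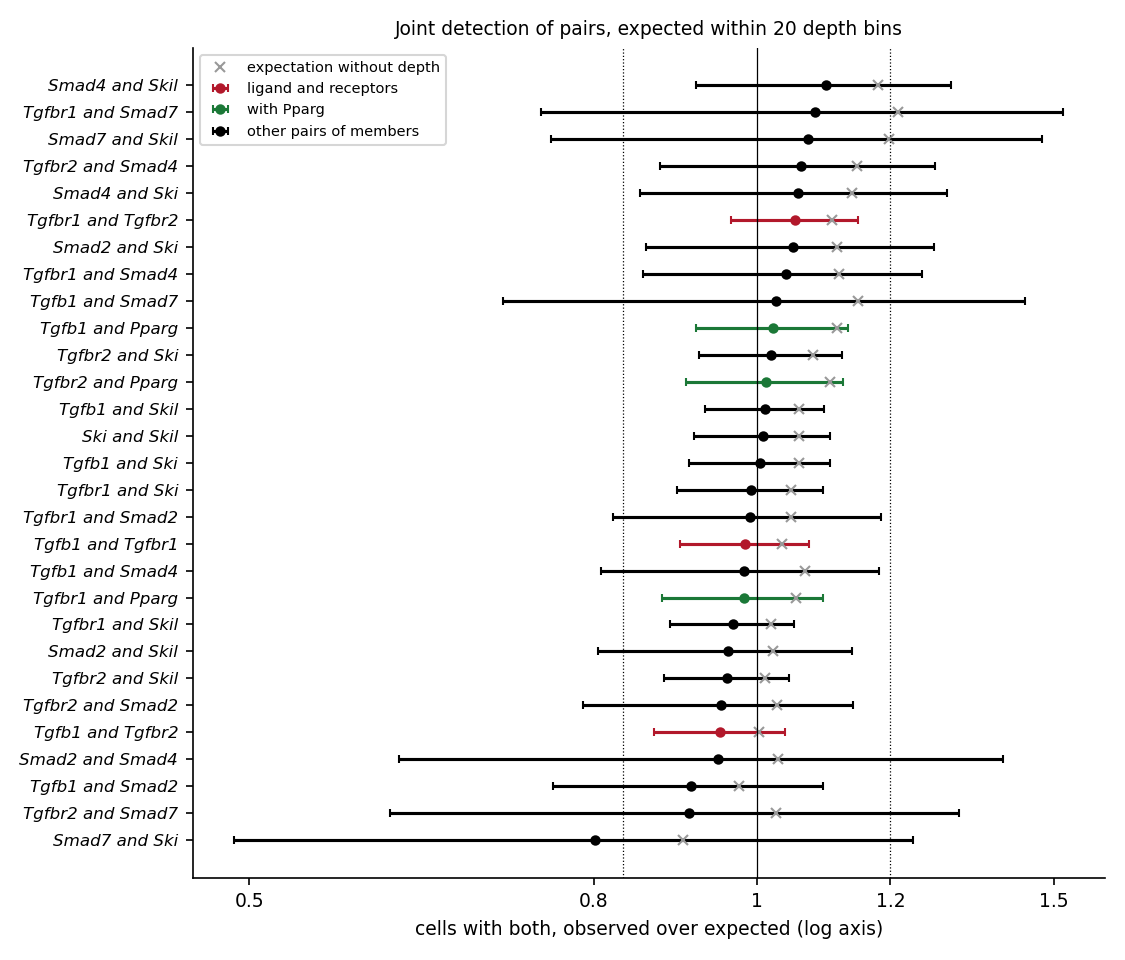
Cells with both transcripts of a pair, observed over expected within 20 depth bins, on a log axis with exact 95% Poisson intervals. Crosses show the ratio when depth is ignored and dotted lines a departure of 1.2-fold. The 3 ligand and receptor pairs lie between 0.951 and 1.05, and the crosses lie to the right of the points.

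Among the other genes of the pathway, those that make or receive TGF-β were listed in part. Of 12 other ligands of the superfamily 4 were listed, namely Gdf15 (739 UMIs, level 1.02, 25.1% of cells), Inhba (82 UMIs), Tgfb2 (49 UMIs in 41 cells) and Bmp2 (2 UMIs). Gdf15 encodes a stress-induced cytokine and Inhba the βA subunit of activin. Of 17 genes for latency and activation of the ligand 8 were listed, and 5 were in at least 5% of cells. They were led by Furin (level 1.46), the protease that cleaves the TGF-β1 precursor, by Itgb1 (1.44), an integrin subunit, and by Nrros (0.648), which holds latent TGF-β1 on the surface of myeloid cells. Of 14 other receptors and co-receptors 12 were listed, led by the co-receptor Nrp1 (0.703), the BMP receptor Bmpr2 (0.547) and Nrp2 (0.526). Each of these was below Tgfbr1 and Tgfbr2.

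Downstream, the list of other Smads, adaptors and turnover genes had 15 of 16 genes listed, 11 of them in at least 5% of cells. It was led by Fkbp1a (2.52), which binds the type I receptor and keeps it inactive, Strap (0.778), a receptor-associated adaptor, and Smad1 (0.707). Smad1, a transducer of BMP signals, was 1.96-fold above Smad2 (1.68 to 2.28). Of 19 nuclear partners of Smads 17 were listed, led by Runx1 (4.96), Spi1 (2.35), which encodes the macrophage factor PU.1, and Zeb2 (2.04). Of 19 genes that TGF-β induces in many cell types 15 were listed, led by Cdkn1a (7.63), Junb (7.54) and Bhlhe40 (3.79). All 11 AM genes linked to TGF-β signalling were listed, with Chil3 (136) and Cd9 (67.6), each in 100% of cells, and Plet1 (in 92.2% of cells) at the top. With the ligand or either receptor, all but 1 of the tested genes of these lists had a joint detection ratio within 1.2-fold. The tested genes numbered 1, 5, 5, 11, 15, 12 and 11 in the lists in the order given above. A gene in nearly every cell can only have a ratio close to 1, and for Cd9 and Chil3 it is 1 whatever the association. For such genes a ratio within 1.2-fold carries no weight. The exception was Hdac3 with Tgfbr2 (50 cells, 60.5 expected, ratio 0.826, 0.613 to 1.09), Hdac3 being the deacetylase that the study deletes and a partner of Smad co-repressors. Hdac3 was detected in 5.60% of cells, from 119 UMIs, close to the lower limit of 5% for a tested gene. Of 5944 genes, 0.622% were past 1.2-fold with Tgfb1, 0.757% with Tgfbr1 and 0.522% with Tgfbr2. Among so many ratios, 1 past the limit is no finding by itself.

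The members were then compared between cell states. A state is the top 10% of cells (206 of 2055) by the summed level of a gene list, and it is a range of a score and not a cell type. Close to the border, within 1.1-fold on either side, lay 43 cells for the dividing score, 34 for MHC class II, 35 for chemokine and TNF and 121 for the immediate-early score. The lists were for dividing cells (19 genes), MHC class II (4), chemokines and TNF (7) and immediate-early genes (8), and none of them holds a member. A gene with at least 100 UMIs was counted as past the limit when its level in the state was 1.5-fold above or below that in the other 1849 cells. Smad7 has too few UMIs, which leaves 7 members. Past the limit were 14.2% of all genes for dividing cells, 8.73% for MHC class II, 9.85% for chemokine and TNF cells and 9.63% for immediate-early cells. Of the 7 members, 0, 0, 1 and 0 were past it. Beside these shares of all genes, 0 or 1 of 7 does not set the members apart, and what follows is a description. The median ratio of the 7 was 0.875, 0.924, 0.947 and 1.06, beside 1.00, 0.953, 0.952 and 0.988 over all genes tested.

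The member past the limit was Skil in the chemokine and TNF cells. Its level was 3.62 (3.21 to 4.06) there and 2.33 (2.21 to 2.45) in all other cells, a ratio of 1.55 (1.36 to 1.76). A UMI of Skil was found in 70.4% of these cells and in 52.4% of the others, or in 50.6 and 36.2% after thinning to 2000 UMIs. The cells of this state were deeper, with a median of 3599 UMIs against 3245, and had less mitochondrial RNA (3.01 against 3.23%). In 3 bins of depth the ratio was 1.75 (1.25 to 2.39), 1.31 (1.01 to 1.68) and 1.71 (1.44 to 2.04) from shallow to deep. The result turned on the size of the state. In the top 5% of cells the ratio of Skil was 1.79 and that of Ski 0.630, both past the limit, and in the top 20% Skil was at 1.37, under it. The other 6 members had ratios of 0.891 to 1.03 in these cells, with intervals that include 1. Tgfb1 had a level of 1.98 against 2.22, Tgfbr1 1.98 against 2.09, Tgfbr2 1.93 against 2.04 and Ski 1.34 against 1.505. The summed level of the AM markers was 376 in the state and 368 outside it, and that of the lung epithelial markers 4.10 and 4.03. The lymphocyte markers were at 0.141 in the state and 1.58 outside it, where the cell with 945 of their UMIs lies. Lower in the state were the 2 listed granulocyte markers (0.383 against 0.489), and the 2 listed dendritic cell markers had 0 UMIs in it. The 8 listed markers of interstitial macrophages and monocytes had 7.26 against 6.48. Over all cells Nr4a1 made up 5.18 of the 6.56 of this list, so the sum mostly follows that gene.

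In the immediate-early cells Skil was at 3.13 (2.73 to 3.58) against 2.40 (2.28 to 2.52), a ratio of 1.31 (1.13 to 1.51) that stayed under the limit. Smad2 had the largest ratio there, 1.43, with an interval that includes 1 (0.964 to 2.05). The chemokine and immediate-early states overlapped in 72 cells (35.0% of each). Skil had a level of 3.70 (3.00 to 4.51) in cells of both states, 3.57 (3.08 to 4.13) in the 134 cells of the chemokine state alone, 2.78 (2.30 to 3.33) in the 134 cells of the immediate-early state alone, and 2.30 (2.18 to 2.42) in the 1715 cells of neither. Against the cells of neither, the ratio was 1.61 (1.30 to 1.98) for both, 1.56 (1.33 to 1.81) for the chemokine state alone and 1.21 (0.992 to 1.46) for the immediate-early state alone. The division by both states was made after the values had been seen.

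**Figure D4:**
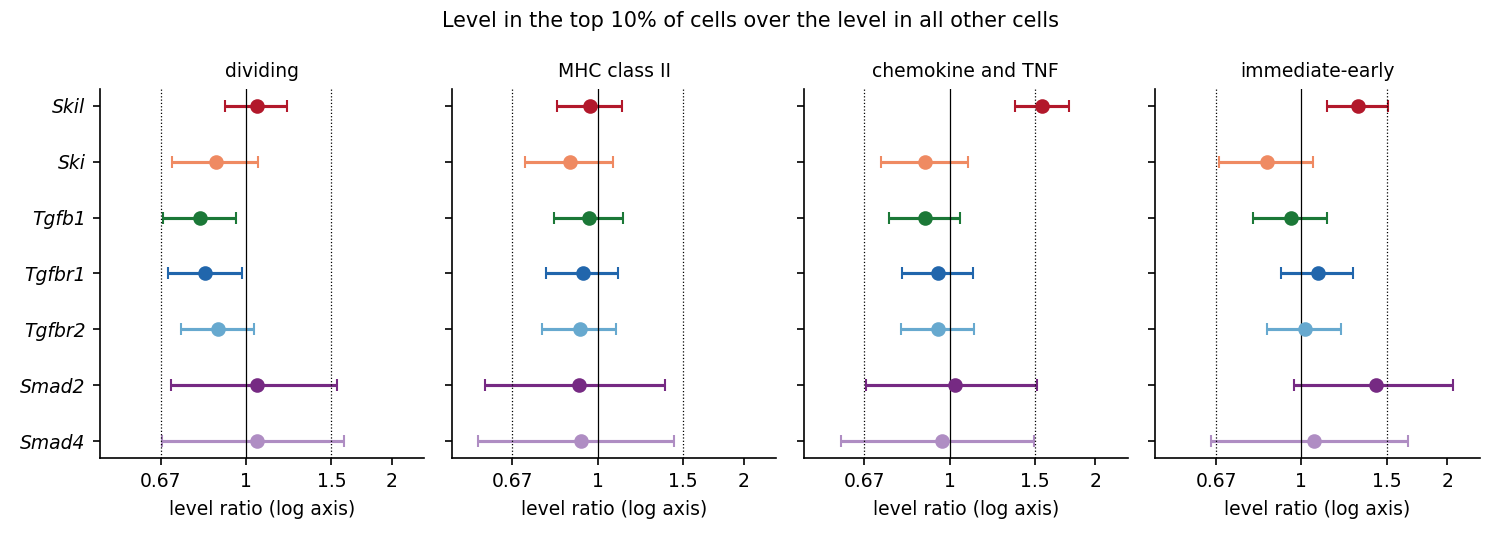
Level in the top 10% of cells of each state over the level in all other cells, on a log axis with exact 95% intervals, for the 7 members with at least 100 UMIs; dotted lines mark 1.5-fold. Skil in the chemokine and TNF cells is the only point past a dotted line, at 1.55.

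Over the range of the scores the level of Skil was highest in the top bins. In 5 bins of 411 cells by the chemokine and TNF score the level of Skil was 2.22, 2.13, 2.28, 2.52 and 3.14 from low to high, the highest bin being 1.41-fold the lowest (1.22 to 1.64). By the immediate-early score it was 2.04, 2.39, 2.12, 2.78 and 3.01, a ratio of 1.48 (1.27 to 1.72). The lowest 3 bins of the chemokine and TNF score overlapped, and the climb lay in the upper bins. Ski was at 1.64 and 1.38 in the lowest and highest bin of the chemokine and TNF score (ratio 0.842, 0.694 to 1.02). Tgfbr2 was lower at the top of that score, 1.79 against 2.26 (ratio 0.791, 0.669 to 0.935). Tgfb1 was lower at the top of the immediate-early score, 1.98 against 2.35 (0.842, 0.715 to 0.990). For these ratios between bins no share of all genes is given.

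**Figure D5:**
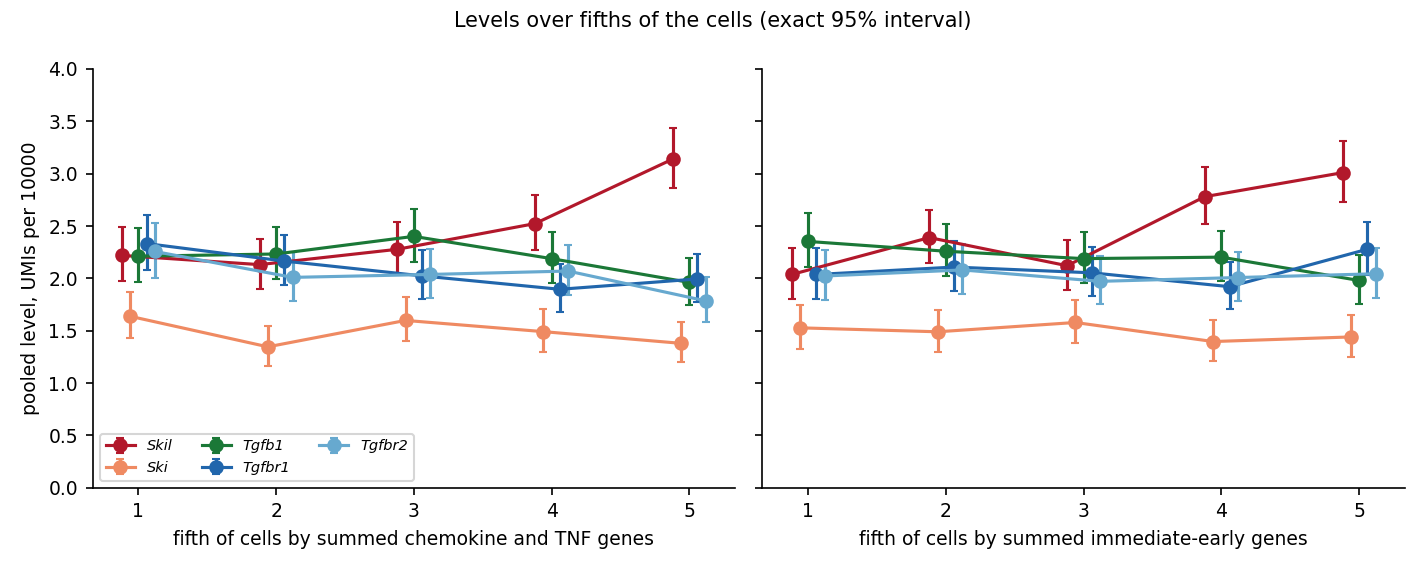
Pooled level of 5 members in 5 bins of 411 cells ordered by the summed level of the chemokine and TNF genes (left) or the immediate-early genes (right), with exact 95% intervals and points moved slightly sideways. Skil goes from 2.22 to 3.14 on the left and from 2.04 to 3.01 on the right, while Ski ends at 1.38 and 1.44.

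In dividing cells no member was past the limit, and Tgfb1 and Tgfbr1 had intervals below 1. No share of all genes with such an interval is given, so these intervals do not set Tgfb1 and Tgfbr1 apart from other genes. Tgfb1 had a level of 1.81 (1.53 to 2.13) against 2.25 (2.13 to 2.37), a ratio of 0.806 (0.676 to 0.955), and Tgfbr1 1.75 against 2.12, a ratio of 0.825 (0.689 to 0.981). Tgfbr2 had a ratio of 0.875 (0.733 to 1.04). Skil had 2.58 against 2.45 (1.05, 0.906 to 1.21). Dividing cells were deeper, with a median of 3847 UMIs against 3243, and Tgfb1 and Tgfbr1 also had their lowest levels in the deepest bin of all cells. In 3 bins of depth the ratio was 0.817, 0.861 and 0.805 for Tgfb1 and 0.724, 0.849 and 0.882 for Tgfbr1, and each of these intervals included 1. With the top 20% of cells the ratio was 0.936 for Tgfb1 and 0.923 for Tgfbr1. Over 5 bins of the dividing score the highest against the lowest gave 0.832 (0.709 to 0.977) for Tgfb1, 0.927 (0.782 to 1.10) for Tgfbr1 and 0.796 (0.673 to 0.941) for Tgfbr2, so that which receptor was lower turned on how the cells were divided. The summed level of the AM markers was also lower in dividing cells (319 against 375), and its part in these ratios was not tested. In MHC class II cells the ratios of the 7 members lay between 0.877 and 0.963, and each interval included 1. Nearly all UMIs of lymphocyte markers (962 of 1028) fell in this state, in 8 of its cells. Without all cells that hold such a UMI, a division made after the values had been seen, the ratios lay between 0.844 and 1.01.

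Of the other pathway genes, those induced by TGF-β in many cell types were compared first. In the chemokine and TNF cells 2 of 12 such genes were past 1.5-fold, both higher, beside 9.85% of all genes past the limit in either direction: Junb (13.4 against 6.83, ratio 1.96) and Id3 (0.447 against 0.276, 1.62). In the immediate-early cells 3 of 12 were past it, beside 9.63% of all genes, namely Junb, Id3 and Tsc22d1 (0.568 against 0.346, 1.64). Of 15 nuclear partners Jun and Cited2 were higher in both states, Jun by 3.46-fold and 4.27-fold and Cited2 by 1.77-fold and 1.82-fold. Jun and Junb are immediate-early genes themselves, and many stimuli other than TGF-β induce these genes. Among the ligands Gdf15 was higher in immediate-early cells (1.85 against 0.936, 1.98-fold) and lower in MHC class II cells (0.680 against 1.06, 0.639-fold). In dividing cells, where 14.2% of all genes were past the limit, 3 of 11 turnover genes were past it on the low side. These were Usp15 (0.490, 0.219 to 0.955), Rnf111 (0.648, 0.409 to 0.984) and Smad5 (0.620, 0.261 to 1.27), the last with an interval that includes 1. Of the 15 nuclear partners 2 were past it on the high side in dividing cells, Sin3a (1.72, 1.04 to 2.71) and Jun (1.67, 1.36 to 2.05), a share close to that of all genes. In MHC class II cells, where 8.73% of all genes were past the limit, Hdac1 (0.618), Id1 (0.578) and Itgb5 (0.641) were past it with intervals below 1, Trim33 (0.642) and Wwp1 (1.59) with intervals that include 1. The ratio of Wwp1 in chemokine and TNF cells (0.644) and that of Usp15 in immediate-early cells (0.666) also had intervals that include 1, while Nrp2 was higher in immediate-early cells (1.68, 1.25 to 2.23). Lists of 11 to 15 genes with so few past the limit were not set apart from all genes by any test. Of the 11 AM genes linked to TGF-β 0 passed the limit in 3 of the states, and Fabp4 alone did in the chemokine and TNF cells (5.54 against 3.65, 1.52-fold).

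Finally, the genes whose scaled scores were most alike to those of each member over the 2055 cells were listed, among 5944 genes in at least 5% of cells. The cells share 1 library and their scores share the same correction for depth, and no test was made. Correlations were weak for all members. The highest Pearson's r was 0.0786 for Tgfb1 (Peli2), 0.0855 for Tgfbr1 (Nol4l), 0.108 for Tgfbr2 (Abcg1), 0.0889 for Smad2 (Rbm17), 0.0897 for Smad4 (Cops6), 0.0870 for Ski (Rab12) and 0.130 for Skil (Junb). The 99th percentile over all genes lay between 0.0557 and 0.0677. At this sparseness values of that size are no finding by themselves, and the lists are given as a description.

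The 5 genes most like Skil were Junb (0.130), Ereg (0.116), Kdm6b (0.116), Egr1 (0.116) and Nr4a1 (0.112). Junb, Egr1 and Nr4a1 encode transcription factors of rapid responses, Ereg the growth factor epiregulin and Kdm6b a histone H3K27 demethylase. For Tgfbr2 they were Abcg1 (0.108), a cholesterol exporter typical of AMs, Cybb (0.0981), the catalytic subunit of the phagocyte oxidase, Gps1 (0.0918), Pla2g15 (0.0806), a lysosomal phospholipase, and Ctsd (0.0794), a lysosomal protease. For Tgfb1 they were Peli2, Fam162a, Ssh1, Map1lc3b and Ubb (0.0735 to 0.0786). For Tgfbr1 they were Nol4l, Rab11fip1, Med11, Itga5 and Ier2 (0.0791 to 0.0855). Smad2 had Rbm17, Tmod3, Hmgb2, Rnf121 and Nfatc1. Smad4 had Cops6, Rin2, Pcf11, Naa50 and Syk. Ski had Rab12, Slc38a1, Arsb, 1300002E11Rik and Ino80d. The lists depended on the measure. By Pearson residuals of the UMIs, Fam162a moved to place 83 for Tgfb1, Ubb to 224 and Map1lc3b to 266, and Ier2 moved to place 366 for Tgfbr1. No member was among the 5 genes most like another. Between members r ran from -0.0532 (Tgfbr2 and Skil) to 0.0571 (Smad4 and Skil). It was 0.0488 for the receptors, 0.00171 for Tgfb1 and Tgfbr1 and -0.0431 for Tgfb1 and Tgfbr2. The lowest was under the 1st percentile over all genes for Tgfbr2 (-0.0517) but not for Skil (-0.0585). The highest was over the 99th percentile for Smad4 (0.0557) but not for Skil (0.0677).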

How the data were processed

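Single-cell RNA of sorted WT AMs was measured in 1 library. The authors counted UMIs on mm10 with Cell Ranger and deposited natural log values of 1 plus the UMIs per 10000 in each cell, made with Seurat. They also deposited scaled scores, the log values after regression on depth and mitochondrial share. UMIs were recovered from the log values, whole within 0.001 for 100% of values. Levels are pooled UMIs per 10000 with exact Poisson intervals, shares of cells have exact Clopper-Pearson intervals, and ratios of levels exact conditional intervals, at 95%. Joint detection was compared with the expectation within 20 depth bins, with an exact Poisson interval for the observed cells. That interval does not hold fixed the number of cells with each gene, so it is wider than the spread under independence. Thinned shares are expectations for 2000 UMIs drawn from a cell. Doublets were not called, and no cell was left out unless stated. Correlations are Pearson's r of the scores.

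The members and gene lists were chosen with earlier results of these data known. Named genes are all members, the 3 listed genes of highest level in each pathway list, the 5 genes with the highest r for each member in at least 10% of cells, and the pairs with the lowest and highest ratio; other list genes past a limit were named after their values were seen. A gene of the induced list is not reported here and was left out of its counts. Python 3.11.15, numpy 2.4.6, scipy 1.17.1, pandas 2.3.3 and matplotlib 3.10.9 were used, and the steps were tested on simulated data. Alternatives were equal weights for all cells, cells of at most 5% mitochondrial RNA, cells within the 10th to 90th percentile of depth, removal of the 5% of cells highest in the dividing list, a limit of 2 UMIs, thinning, 10 depth bins, a logistic model of depth, the top 5 or 20% of cells, Pearson residuals and rank correlation. States without the cells of an overlapping state, and MHC class II cells without those holding a lymphocyte marker, were added after seeing the data.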

Additional observations from a re-analysis of the deposited data

How the results depend on the processing

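Pooled levels (32 values) and joint detection (40) under their alternatives each moved by less than the 95% interval of the value reported. The named correlations (105 values) stayed above 0, but by Pearson residuals Map1lc3b fell from 0.0737 to 0.0376 and Ubb from 0.0735 to 0.0393 for Tgfb1, and Ier2 from 0.0791 to 0.0397 for Tgfbr1. The ratio of Smad7 with Ski was 0.867 after thinning, within 1.2-fold. Shares of cells with a transcript depended on what counts as detection. With a limit of 2 UMIs they were 21.2% for Skil, 19.1% for Tgfb1, 17.2% for Tgfbr1, 16.9% for Tgfbr2, 10.7% for Ski, 0.925% for Smad2, 0.535% for Smad4 and 0.0973% for Smad7. With each cell thinned to 2000 UMIs they were 37.7, 35.5, 33.2, 32.7, 25.5, 7.11, 5.86 and 1.62% in the same order. The number of members past 1.5-fold in chemokine and TNF cells was 2 with the top 5% of cells (Skil at 1.79 and Ski at 0.630) and 0 with the top 20% (Skil at 1.37). It was 1 with cells of at most 5% mitochondrial RNA, and in the other 3 states it was 0 under each of these. Of the state ratios, 117 stayed within the interval of the value reported and 3 did not, those of Skil and Ski and that of Tgfb1 in the top 5% of dividing cells (0.670). The cause of these shifts was not tested. No paired analysis was possible because the library is a single sample. With 1 mouse, the spread between mice is unknown, and the depth leaves most detections at 1 UMI.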
